A study of Paralichthys olivaceus with 2 samples.

Results

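The miR-99, miR-100 and miR-125 family made up 5 of the 252 known mature miRNAs on the arrays, by 1 probe each: dre-miR-99, dre-miR-100, dre-miR-125a, dre-miR-125b and dre-miR-125c, called miR-99 and so on below. The rule used probe names only (a zebrafish or pufferfish prefix, then miR-99, miR-100 or miR-125 with or without a letter and no star). It was set with earlier results of these data known. All 5 members carried the zebrafish prefix dre. The RNA came from whole Japanese flounder (Paralichthys olivaceus) larvae, a flatfish that turns from an upright swimmer into a bottom dweller during metamorphosis. One array held RNA of larvae at 29 days post hatching (dph), which the labels place in mid-metamorphosis, and 1 array held RNA at 17 dph, before metamorphosis. Larvae had been collected 5 to a tube, both stages were handled by the same protocol, and no genotype or treatment apart from the anaesthetic is named in the labels. With 1 array per stage, no test between stages was possible, and SD values below are over the 3 spots of a probe on 1 array, which leaves out the variation between larvae, extractions and arrays.

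MicroRNAs are short RNAs that guide Argonaute proteins to mRNAs, mainly through bases 2 to 8 of the miRNA, the seed, and lower the output of those mRNAs. The miR-125 group holds the vertebrate relatives of lin-4, which, like let-7, times larval development in the nematode Caenorhabditis elegans. In many vertebrates the genes of miR-99 or miR-100, let-7 and miR-125 lie together in clusters. Known targets include p53 for miR-125b in zebrafish and human cells, Lin28 for miR-125 and let-7 in mammals, and the mTOR kinase for miR-99 and miR-100 in human cells. In zebrafish, miR-99 and miR-100 have been linked to heart regeneration. Flatfish metamorphosis itself is driven by thyroid hormone.

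The targets of the 5 probes are shown because 2 pairs of members, miR-99 with miR-100 and miR-125b with miR-125c, differ by a single base. They are given 5′ to 3′ with the seed in capitals, as deposited with the arrays.
miR-99: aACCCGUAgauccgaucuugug
miR-100: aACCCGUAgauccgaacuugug
miR-125a: uCCCUGAGacccuuaaccugug
miR-125b: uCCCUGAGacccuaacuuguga
miR-125c: uCCCUGAGacccuaacucguga
The family falls into 2 seed groups. The seed ACCCGUA was found in 2 conserved probes of the array, miR-99 and miR-100, and the seed CCCUGAG in 3, the miR-125 members. No PN- or PC-coded candidate target had either seed at bases 2 to 8. Counted from the 5′ end, miR-99 and miR-100 differed by the single substitution U16A (U in miR-99, A in miR-100). miR-125b and miR-125c differed by U18C. miR-125a shared its first 13 bases with both and was 3 edits away from miR-125b and 4 from miR-125c. How much of one member's RNA binds the probe of another was not tested. The flounder's own miRNA sequences were not used here, so a base that differs between flounder and zebrafish would not be seen.

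A second measurement of the same RNA was looked for among the 180 PN-coded and 544 PC-coded candidates. None of their targets contained a member's target or lay within one, and the longest run of bases shared with any candidate was 7 for miR-99, miR-100, miR-125a and miR-125b and 8 for miR-125c. The 5 members therefore rest on 1 probe each.

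The 715 empty spots, which show the background, had medians of 38.8 (29 dph) and 45.6 (17 dph) in density, the scanner's linear intensity. Detection required 50% or more of a probe's spots to exceed the mean of these empty spots by over 3 SD, a limit of 45.6 at 29 dph and 68.7 at 17 dph. Of the 252 conserved miRNA names, 126 were detected at 29 dph and 66 of these also at 17 dph. Of 7 miRNAs that mark different tissues (miR-1, miR-133a, miR-206, miR-122, miR-124, miR-203a and miR-192), 7 were detected at 29 dph and 6 at 17 dph, where miR-1 was not. Empty spots within 8 rows of the members had medians of 37.3 to 38.0 at 29 dph and 43.9 to 44.6 at 17 dph. Precision is limited by the number of arrays.

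All 5 members were detected on both arrays, with every spot above the limit, also with the limit at the mean + 2 SD or at the median + 3 scaled MAD of the empty spots. In the first seed group, miR-99 gave densities of 146.94, 127.84 and 136.11 in its 3 spots at 29 dph, against 104.94, 100.99 and 95.24 at 17 dph. miR-100 gave 464.31, 474.37 and 486.65 at 29 dph, against 183.35, 205.37 and 222.06 at 17 dph. For both miRNAs every spot was brighter at 29 dph than any spot at 17 dph. miR-99 was the dimmest member at 29 dph, at 3.01 times the detection limit.

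In the miR-125 group, miR-125a gave densities of 732.15, 736.13 and 747.69 at 29 dph, against 492.82, 443.41 and 527.62 at 17 dph. It was the brightest member on both arrays, although brightness also depends on how well a probe binds and does not order the RNAs. miR-125b gave 465.31, 446.45 and 541.54 at 29 dph, against 90.30, 93.15 and 93.35 at 17 dph. miR-125c gave 541.16, 539.47 and 592.56 at 29 dph, against 136.86, 136.01 and 143.42 at 17 dph. The spots of the 2 stages did not overlap for any of the 3. At 17 dph miR-125b was only 1.34 times the detection limit, the closest of the 5 to background.

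The 5 members were thus all brighter at 29 dph before any scaling, but by unequal amounts. The ratio of mean densities, 29 dph over 17 dph, was 1.36 for miR-99, 2.33 for miR-100, 1.51 for miR-125a, 5.25 for miR-125b and 4.02 for miR-125c. After subtraction of each array's median empty spot the ratios were 1.79, 2.76, 1.58, 9.54 and 5.57 in the same order. miR-125b and miR-125c therefore had the highest ratios and miR-125a, from the same seed group, the lowest or next to lowest. The arrays also differed in brightness. The median over all probe spots, most of them of PN- or PC-coded candidates, was 139.44 at 29 dph and 55.4 at 17 dph. Over the spots of the conserved probes alone it was 44.9 at 29 dph and 46.4 at 17 dph, close to the empty spots. Many conserved probes were not detected, so this median lies near background and cannot show whether conserved probes brightened. With background correction but no scaling, the median log2 difference (29 dph minus 17 dph) of the 66 conserved miRNAs detected on both arrays was 1.25. Unscaled ratios mix any shift between the arrays with any change of the miRNA.

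**Figure D1:**
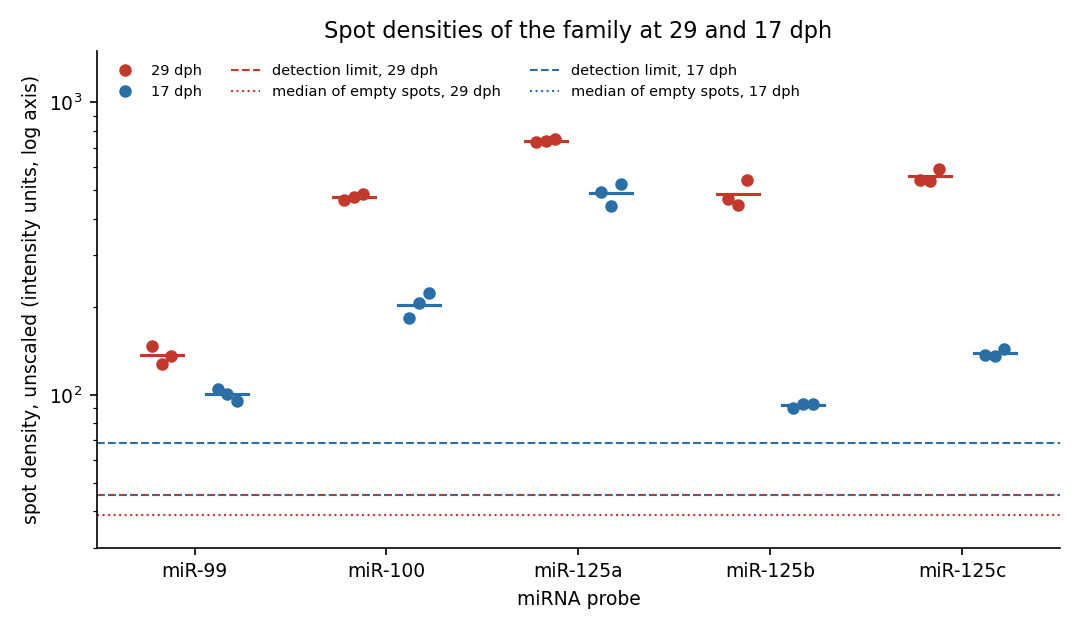
Unscaled spot densities (log axis) of the 5 probes. Points are the 3 spots of a probe at 29 dph (red, left) and 17 dph (blue, right), short bars their means, dashed lines the detection limits and dotted lines the medians of the empty spots; the red dashed line and the blue dotted line coincide at 45.6. The gap between the stages is widest for miR-125b (means of 484 at 29 dph and 92.3 at 17 dph) and narrowest for miR-99 (137.0 at 29 dph and 100.4 at 17 dph).

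The main comparison put both arrays on 1 scale by quantile normalization over all probes, so that each value is relative to the other probes. Conserved probes were 263 of the 987 that set this scale, and the rest were PN- or PC-coded candidates. miR-125a then had a normalized log2 signal of 8.37 ± 0.016 at 29 dph and 10.43 ± 0.11 at 17 dph (SD, 3 spots), a log2 difference of -2.06 (29 dph minus 17 dph), or 0.239 times the 17 dph value. Its rank was 4 from the lowest among the 126 detected conserved miRNAs. miR-99 stood at 6.70 ± 0.057 at 29 dph and 7.95 ± 0.084 at 17 dph, a difference of -1.26 and rank 16. miR-100 stood at 7.86 ± 0.023 at 29 dph and 9.10 ± 0.16 at 17 dph, a difference of -1.23 and rank 17. These 3 members lay lower at 29 dph relative to the rest of the probes.

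The other 2 members of the miR-125 group did not follow miR-125a. miR-125c had 8.04 ± 0.070 at 29 dph and 8.48 ± 0.038 at 17 dph, a difference of -0.44 and rank 49. miR-125b had 7.88 ± 0.11 at 29 dph and 7.81 ± 0.036 at 17 dph, a difference of 0.071 and rank 80, and it was the only member whose normalized spots overlapped between the stages. The call rule asked for detection on either array, a log2 difference of 1 or more in either direction and no overlap between the spots of the stages. By that rule 3 of 5 members were lower (miR-99, miR-100 and miR-125a), 0 were higher and 2 were neither. Over the detected conserved miRNAs the same rule called 17.5% lower and 8.73% higher. Among the 66 detected on both arrays, as all 5 members were, 33.3% were lower. From the lowest of these 66, miR-125c had rank 42 and miR-125b rank 55. The ranks of miR-125a, miR-99 and miR-100 stayed at 4, 16 and 17. These data come from whole larvae, in which fewer cells that hold a miRNA and less of it per cell cannot be told apart. On this relative scale, a rise of the other probes cannot be told apart from either.

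**Figure D2:**
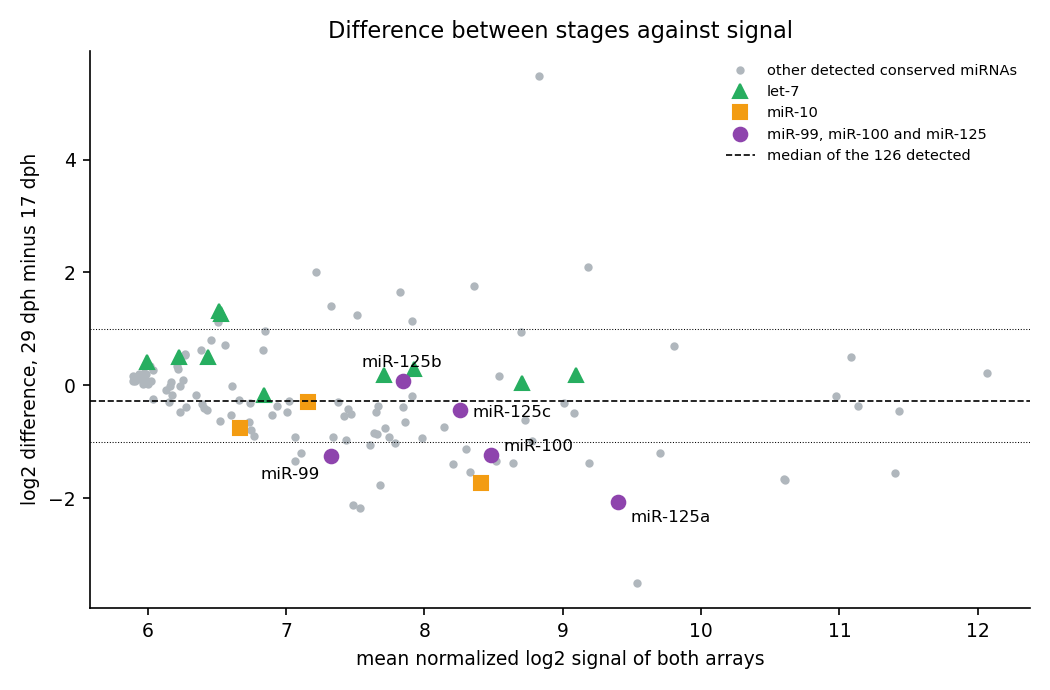
Log2 difference (29 dph minus 17 dph, quantile-normalized) against the mean normalized log2 signal of both arrays for the 126 detected conserved miRNAs. Purple circles are the 5 members, green triangles let-7, orange squares miR-10, the dashed line the median of all (-0.29) and the dotted lines the size a call requires; miR-99, miR-100 and miR-125a lie below the lower dotted line, miR-125b and miR-125c between the dotted lines.

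The median difference of the 5 members was -1.23, against -0.29 over the 126 detected conserved miRNAs and -0.70 over the 66 detected on both arrays. The median of the family below that of all detected was not stable to the scaling. With a single scaling factor per array or none, the family median lay 0.10 above the median of the 126 and stood at -0.079 relative to that of the 66. With no scaling at all the directions of the 3 called members turned, to 0.41 for miR-99, 0.59 for miR-125a and 1.17 for miR-100, while the median of the 126 was 1.07. In that setting 3 of 5 members were called higher (miR-100, miR-125b and miR-125c), against 50.8% of the detected miRNAs. Quantile normalization over the conserved probes alone kept 1 member lower (miR-125a at -1.50), against 8.73%, and scaling to the median of the conserved probes kept 2 (miR-99 at -1.19 and miR-125a at -1.01), against 36.5%. At a threshold of 4-fold on the main scale 1 member, miR-125a, was lower, against 3.17%. The same 3 members as on the main scale were called lower after scaling to the median of all probes detected on both arrays, against 65.9% of the detected miRNAs, and to their 75th percentile, against 75.4%. They were also called lower with cyclic loess, against 18.3%, with plain background subtraction, against 34.1%, with no background correction, against 21.4%, and in the authors' series table, against 38.1%. That table gives 1 value per probe, so the condition on spot overlap had no effect there and calls rest on detection and size only. All shares in this paragraph are over the 126 detected miRNAs, of which 60 were at background at 17 dph. On the main scale the share called lower was 17.5% over the 126 but 33.3% over the 66 detected on both arrays, as the members were. Shares over the 66 are not given for the other settings, so the members' counts there lack a like comparison. "Lower" for these members means lower relative to other probes.

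The unequal differences inside the family depended less on the scale, since a single factor per array cancels between members. The spot ranges of the difference, from the dimmest spot at 29 dph minus the brightest at 17 dph up to the brightest minus the dimmest, were -2.18 to -1.93 for miR-125a, -1.39 to -1.11 for miR-99, -1.41 to -1.04 for miR-100, -0.53 to -0.34 for miR-125c and -0.036 to 0.24 for miR-125b. Only miR-99 and miR-100, which differ by 1 base, overlapped. The difference of miR-125b exceeded that of miR-125a by 2.13, and by 1.63 to 2.51 over the ways of processing that were compared. Of these 12, the 3 single-factor scalings and no scaling give the same gaps by construction, so they count as 1 and 9 ways are compared in what follows. For 2 members of equal GC content (the share of G and C in the target), removal of the GC trend repeats the main gap by construction. This holds for miR-125c with miR-125a and for miR-100 with miR-99. The difference of miR-125c exceeded that of miR-125a by 1.62, with a range of 1.31 to 1.79. miR-125b had the highest and miR-125c the second highest difference of the 5 in all 9, while the lowest was miR-125a in 7 and miR-99 in 2.

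Between the members of the pairs that differ by 1 base the gaps were smaller than those of miR-125b and miR-125c to miR-125a. They were not the smallest in the family in every way of processing. On the main scale miR-125a lay at -0.81 relative to miR-99. With plain background subtraction miR-99 and miR-125a both stood at -2.41, and miR-100 at -1.63. miR-125b lay above miR-125c by 0.52, positive in all 9 but with a range of 0.086 to 0.72. miR-100 lay above miR-99 by 0.024, with a range of -0.15 to 0.78 and a positive sign in 8 of 9. For this pair the GC-adjusted gap, counted among the 8, repeats the main one by construction. The median of the 126 detected miRNAs includes 60 that were detected at 29 dph only. Relative to the median of the 66 detected on both arrays, the main difference was -0.55 for miR-99, -0.53 for miR-100, -1.36 for miR-125a, 0.77 for miR-125b and 0.26 for miR-125c. These signs held in all 9 ways. Relative to the median of the 126, miR-125c stood at -0.16, below it in 6 of the 9, and miR-100 was below it in 8.

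**Figure D3:**
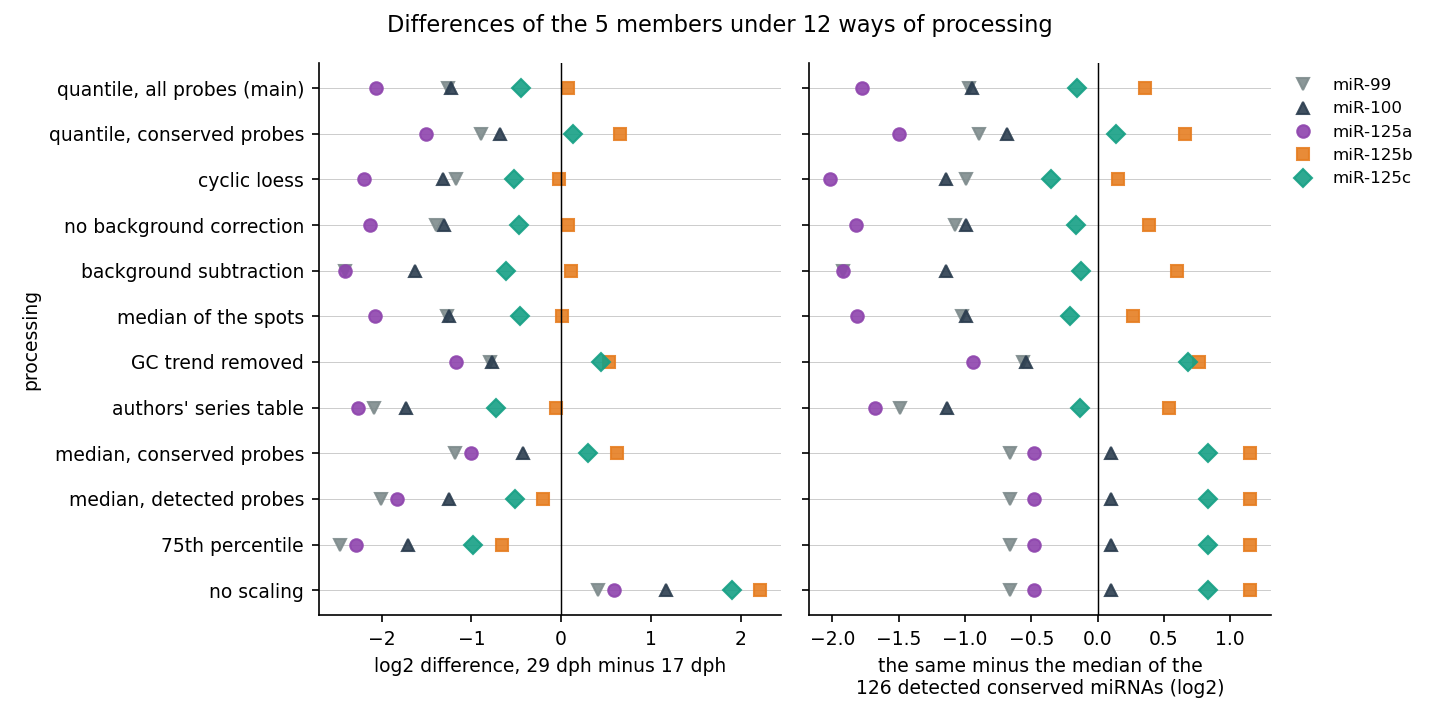
Log2 difference (29 dph minus 17 dph) of the 5 members under 12 ways of processing (left), and the same minus the median of the 126 detected conserved miRNAs (right). Each symbol is 1 member; miR-125b is rightmost and miR-125c next to it in every row, and the rows with no scaling or a single factor per array are the same in the right panel by construction.

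Differences on these arrays were lower for targets rich in G and C. The rank correlation of difference with GC content (Spearman's rho) over the 126 detected miRNAs was -0.66, a description over probes that share the same 2 arrays. The members' targets lie in the GC-rich range, with 50% for miR-99, miR-100 and miR-125b and 54.5% for miR-125a and miR-125c. With the linear GC trend removed, miR-125a stood at -1.17 and was the 1 member still called lower (10.3% of the detected miRNAs were called lower in that setting). miR-99 at -0.80 and miR-100 at -0.77 fell short of the rule, and miR-125b and miR-125c stood at 0.53 and 0.45. A straight line in GC moves members of equal GC content alike, so this step cannot change the gaps between them. At 54.5% GC miR-125c lay 1.62 above miR-125a, and at 50% GC miR-125b lay 1.30 above miR-100 and 1.33 above miR-99. The cause of these gaps was not tested.

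**Figure D4:**
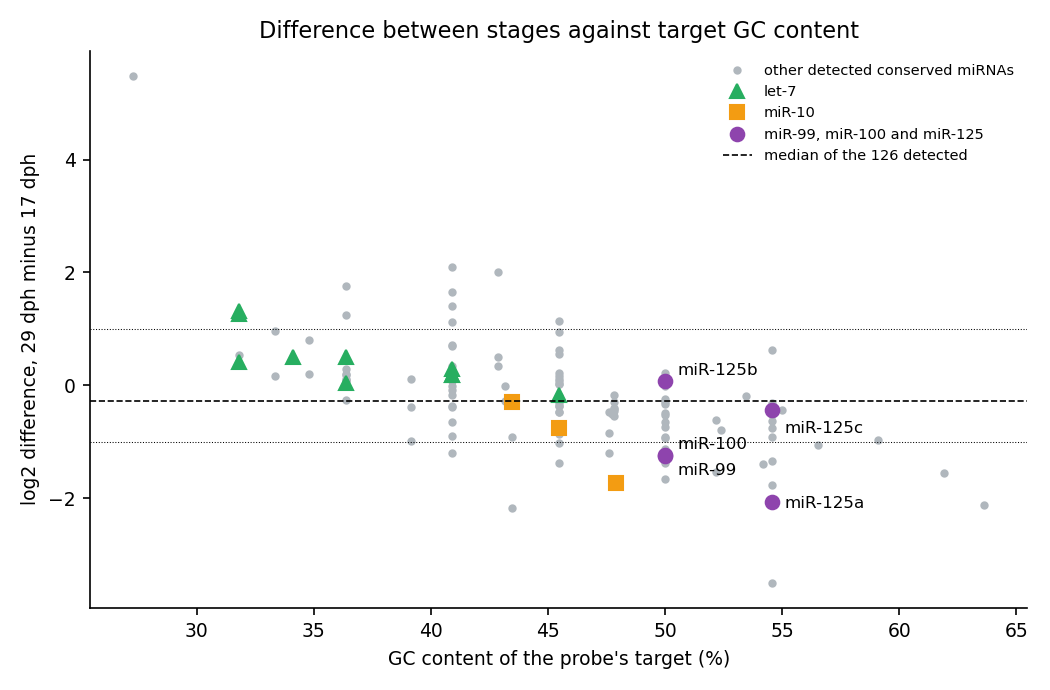
Log2 difference (29 dph minus 17 dph, quantile-normalized) against the GC content of the probe's target for the 126 detected conserved miRNAs, with the same symbols and lines as the plot against signal. At 50% GC miR-125b (0.071) lies above miR-99 and miR-100 (-1.26 and -1.23, overlapping points), and at 54.5% miR-125c (-0.44) lies above miR-125a (-2.06).

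The authors' series table, which gives 1 processed intensity per probe, gave the 5 members the same order of 29 dph over 17 dph ratios as the main scale. Its values for miR-99 were 37.3 at 29 dph and 158.22 at 17 dph, and those for miR-100 146.5 at 29 dph and 485.82 at 17 dph. miR-125a had 254.88 at 29 dph and 1229.51 at 17 dph, the lowest ratio of the 5 at 0.207. miR-125c had 175.54 at 29 dph and 290.3 at 17 dph. miR-125b had 148.8 at 29 dph and 154.73 at 17 dph, the highest ratio at 0.962. The steps behind these values are not stated in the sources used here.

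The let-7 miRNAs are cluster partners of the family in many vertebrates and repressors of Lin28 in mammals. All 10 let-7 names were detected at 29 dph but only 4 at 17 dph, so 6 passed the detection filter through 29 dph alone and their 17 dph values are background. By the call rule 2 were higher, 0 lower and 8 neither, against 8.73% higher and 17.5% lower over the detected miRNAs. The median difference was -1.23 for the family and 0.35 for let-7, or 0.046 for let-7 with the names at background at 17 dph set to their lower bound, or to 0 where none exceeded 1-fold. The 4 let-7 names detected on both arrays had differences of 0.039 to 0.28. let-7d was the brightest on both arrays, with a density of 1464 ± 162.0 at 29 dph and 193.7 ± 19.9 at 17 dph and a difference of 0.17. The called members let-7f and let-7g were at background at 17 dph, so each has only a bound, at least 1.04-fold higher at 29 dph. Over the 12 ways of processing between 0 and 8 let-7 names were called higher and between 0 and 4 lower. The 8 came with no scaling, where 50.8% of the detected miRNAs were called higher. The 4 came with scaling to the median or 75th percentile of probes detected on both arrays. Of the detected miRNAs 65.9% and 75.4% were called lower there. The targets hold 50% to 54.5% GC in the family and 31.8% to 45.5% in let-7. Once the GC trend was taken out, the median was -0.77 for the family and -0.22 for let-7, with the 6 names at background at 17 dph included.

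The miR-10 miRNAs, encoded in Hox clusters, are the closest relatives of miR-99 and miR-100 by sequence on the array outside the family. The nearest, shown with the seed in capitals, are 4 edits from miR-100.
miR-10a: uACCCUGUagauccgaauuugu
miR-10b: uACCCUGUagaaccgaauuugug
Of 4 miR-10 names 3 were detected, of which 1 was called lower, 0 higher and 2 neither, against 17.5% lower over the detected miRNAs and 33.3% over those detected on both arrays. Over the 12 ways of processing between 0 and 3 were called lower and between 0 and 1 higher. The 3 came with scaling to the median or 75th percentile of probes detected on both arrays. Of the detected miRNAs 65.9% and 75.4% were called lower there. The 1 called higher came with no scaling, against 50.8%. miR-10d, the called and brightest one, had a density of 345.0 ± 12.7 at 29 dph and 227.4 ± 22.1 at 17 dph and a difference of -1.74. These are means over its 2 probes, dre-miR-10d and fru-miR-10d. Each SD is the mean of the SDs of the 2 probes and leaves out the spread between them. The median of the 3 detected names was -0.75, or -0.29 with miR-10c, at background at 17 dph and without a bound, set to 0. A PN-coded probe, PN245, whose target lies within that of miR-10b, gave -0.55 against -0.29 by the miR-10b probe. miR-10a, which shares a run of 11 bases with miR-100, was detected on neither array.

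The miRNAs outside the family nearest to miR-125a, its brightest member on both arrays, were found by Euclidean distance in the plane of the 2 normalized log2 signals. They were miR-17a at a distance of 0.57, with a difference of -1.38, miR-194a at 0.75, with -1.20, and miR-92a at 1.03, with -3.50. These distances rest on 1 array per stage and on signals that also depend on how well each probe binds, and describe position in that plane only.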

How the data were processed

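Per the labels' protocols, total RNA was extracted with Trizol, small RNAs were size-filtered, tailed with poly(A), joined to an oligonucleotide tag and stained with Cy5. The deposited array tables give 1 mean density per spot, a linear intensity that, judged from the values, has neither a background subtraction nor a scaling between arrays. Both array tables carry the same header label, Sample B, over this column, so the stage of each was taken from GEO's record of the sample it belongs to. The authors' deposited series table gives 1 processed intensity per probe, and the steps that made it are not stated in the sources used here. In R 4.3.3, limma 3.58.1 corrected the background of all spots by normexp with an offset of 50. The log2 values of the probe spots were then quantile-normalized between the arrays, and a probe's 3 spots averaged. Probes of the same mature name were averaged. Detection and calls followed the rules given with the results, and no p-value was computed with 1 array per stage. For a miRNA detected at 29 dph only, the bound is its 29 dph signal over the lowest signal of any probe detected at 17 dph, or over its own where that was higher. The GC trend was a straight line fitted over the 126 detected miRNAs, including the 60 detected at 29 dph only. Alternatives were 11 other ways of background correction, scaling, summary and GC adjustment, besides other detection limits and call thresholds. Python 3.11.15, NumPy 2.4.6, pandas 2.3.3 and Biopython 1.88 were used. The members, the let-7 and miR-10 lists and the rules were chosen with earlier results of these data known. Named miRNAs were all members, the 3 nearest to the brightest member of each array, and of each list the brightest and the called ones; miR-10a, miR-10b, miR-10c and PN245 were added after their values were seen.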

Additional observations from a re-analysis of the deposited data

How the results depend on the processing

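The values under each alternative follow, always as log2 differences (29 dph minus 17 dph) in the order miR-99, miR-100, miR-125a, miR-125b and miR-125c, then the medians of the family, of let-7 and of miR-10. With no scaling between the arrays they were 0.41, 1.17, 0.59, 2.22 and 1.90, with medians of 1.17, 2.09 and 0.58, and 3 members were called higher (miR-100, miR-125b and miR-125c, against 50.8% of the detected miRNAs) and 0 lower. Scaling by the median of probes detected at both stages gave -2.01, -1.25, -1.83, -0.20 and -0.52, with medians of -1.25, -0.33 and -1.84. Scaling to their 75th percentile gave -2.47, -1.71, -2.29, -0.66 and -0.98, with medians of -1.71, -0.79 and -2.30. Scaling by the median of such conserved probes gave -1.19, -0.43, -1.01, 0.62 and 0.30, with medians of -0.43, 0.49 and -1.02. In these 4 settings, which differ only by a factor per array, the family median minus that of all detected miRNAs turned from -0.95 to 0.10. Quantile normalization over conserved probes alone gave -0.90, -0.69, -1.50, 0.66 and 0.13, with medians of -0.69, 0.62 and -0.62, a family median -0.68 from that of all detected, and 1 member called lower. Cyclic loess gave -1.17, -1.32, -2.19, -0.023 and -0.52, with medians of -1.17, 0.22 and -0.47. Plain subtraction gave -2.41, -1.63, -2.41, 0.11 and -0.61, with medians of -1.63, 0.97 and -2.06, and a relative family median of -1.14. No background correction gave -1.39, -1.30, -2.13, 0.077 and -0.47, with medians of -1.30, 0.43 and -0.87. The authors' table gave -2.08, -1.73, -2.27, -0.056 and -0.73, with medians of -1.73, 0.23 and -1.87, and a relative family median of -1.14. With the GC trend removed they were -0.80, -0.77, -1.17, 0.53 and 0.45, with medians of -0.77, -0.22 and -0.72, a relative family median of -0.54 and 1 member called lower. A threshold of 4-fold left 1 member called lower, miR-125a. The median of the spots, a threshold of 1.5-fold, no condition on the spots, no filter on dim probes and the other detection limits changed no count of members. Shares called over all detected miRNAs are not given for these settings. An unchanged count therefore does not show how the members compare with the other miRNAs there. Nested candidate probes could not be used in place of the conserved ones because none exists for the family. The causes of these shifts were not tested. No paired analysis was possible because each stage has 1 array.

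Signal over background limits miR-125b and miR-99 most, whose mean densities at 17 dph were 1.34 and 1.46 times the detection limit.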
